A study of Homo sapiens with 24 samples.

Results

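The ATP-binding cassette (ABC) genes described here are the 45 rows, of 30373 in the deposited expression table, whose symbol is ABC followed by a subfamily letter from A to G and a number. A further row, ABCC13, matches that pattern but is a transcribed pseudogene and was left out. Polyadenylated RNA was sequenced from 4 established cell lines of human origin. Of these, Kasumi-1, MV-4-11 and SKM-1 are lines of acute myeloid leukaemia (AML), and NCI-H1299 is a line of non-small cell lung cancer. Each line was cultured for 24 h with ABBV-075 at 100 nM, with ABBV-744 at 200 nM, or with DMSO, the solvent control, which gives 12 groups of 2 libraries. ABBV-075 (mivebresib) blocks each of the paired bromodomains of BET proteins, readers of acetylated histones that help transcribe many genes. ABBV-744 is selective for the second of the pair. Because the compounds were not given at equal doses, a comparison between them holds for these doses only. All cells grew in RPMI-1640 medium with 10% fetal bovine serum. Nothing in the labels tells whether replicate libraries were grown as separate cultures, so the spread behind the p-values may be technical. For each gene this spread was estimated over all 12 groups together, not within the line compared. A call in a line, or its absence, therefore also depends on the spread in other lines. Fits of each line alone, given below, called different numbers of ABC genes in some lines.

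ABC proteins bind and split ATP through a pair of conserved cassettes. Most members couple this to moving a substrate across a membrane. Subfamily A and much of subfamily G move lipids and sterols. Subfamilies B and C hold the exporters of drugs and organic anions, along with carriers of the mitochondrion and lysosome. Subfamily D brings fatty acids into peroxisomes or cobalamin out of lysosomes. Subfamilies E and F have no membrane-spanning part and act on ribosomes and translation. In leukaemia, ABCB1, ABCC1 and ABCG2 are known for exporting chemotherapy drugs.

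Levels are FPKM, fragments per kilobase of transcript relative to all mapped fragments, as the authors deposited them, so levels of different genes are compared per length. The depth of each library is unknown. Libraries summed to between 543426 and 719215 FPKM, with 11243 to 12624 genes at 1 FPKM or more. Replicate libraries differed most within SKM-1 DMSO and within Kasumi-1 ABBV-075, with an SD over genes of the log2 difference between replicates of 0.691 and 0.509, against 0.187 to 0.313 in the other 10 groups. Because the standard error of a gene was estimated over all groups, it does not follow these differences in spread between groups. The 8 blood markers summed to 737 to 6670 FPKM in libraries of the leukaemia lines and to 3.48 to 6.60 FPKM in NCI-H1299. RUNX1T1, a partner in the fusion gene that defines Kasumi-1, averaged 31.2 to 53.7 FPKM in Kasumi-1 groups and at most 0.402 FPKM in groups of the other lines. KRT8 and KRT18, keratins of epithelial cells, averaged 155 and 369.9 FPKM in NCI-H1299 DMSO, but EPCAM and CDH1, which also mark epithelial cells, stayed at or below 0.181 and 0.0616 FPKM in NCI-H1299 group means. EPCAM averaged 33.6 FPKM in SKM-1 DMSO and 66.4 FPKM in Kasumi-1 DMSO. The 4 lymphoid and 3 erythroid markers summed to at most 1.84 and 0.422 FPKM in any library. HEXIM1, a common marker of BET inhibition, rose with both compounds in all 4 lines, by a log2 difference of 1.93 to 2.97 with ABBV-075 and 0.61 to 1.01 with ABBV-744. MYC fell with ABBV-075 in the 3 leukaemia lines, with log2 differences of -1.15 to -5.80, and was not called in NCI-H1299 (-0.31 ± 0.17). With ABBV-744 it fell in SKM-1 (-0.85 ± 0.17) and Kasumi-1 (-1.02 ± 0.17). It was not called with ABBV-744 in MV-4-11 (-0.44 ± 0.17) or NCI-H1299 (0.02 ± 0.17).

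Of the 45 ABC genes, 26 reached 1 FPKM in at least 2 libraries of at least 1 line and were tested there, 16 of them in all 4 lines. The numbers tested were 22 in SKM-1, 22 in MV-4-11, 18 in Kasumi-1 and 23 in NCI-H1299. The other 19 were not tested in any line. Of these, 16 never reached 1 FPKM and 8 never passed 0.1 FPKM, among them the bile salt exporter ABCB11 with at most 0.0415 FPKM, the sulfonylurea receptor ABCC8 with at most 0.0212 FPKM, the retinal carrier ABCA4 with at most 0.0061 FPKM, and the sterol exporters ABCG5 and ABCG8 with at most 0.0421 and 0.0311 FPKM. ABCC12 was listed at 0 in every library. The highest value of an untested member was 1.42 FPKM, for ABCA10 with ABBV-075 in MV-4-11. Together the 45 genes made up 0.0371% to 0.0741% of the summed FPKM of a library, and 18 to 24 of them reached 1 FPKM in any 1 library.

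**Figure D1:**
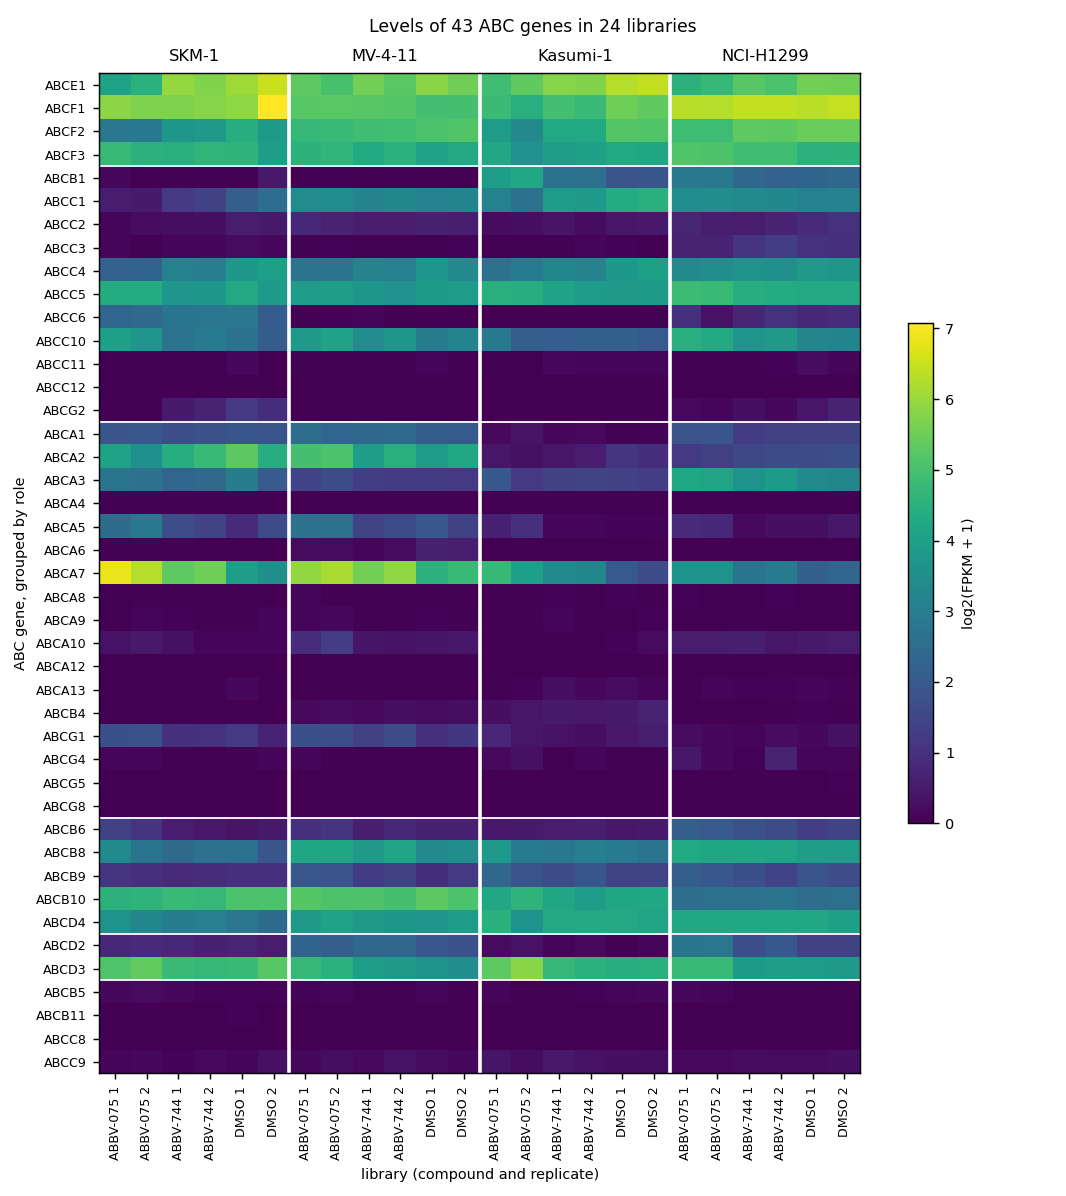
Level of 43 of the 45 ABC genes (rows, grouped by role with white lines between roles) in each of the 24 libraries (columns, by line and treatment), coloured by log2(FPKM + 1). The soluble genes ABCE1 and ABCF1 are among the brightest rows in every line, and the 19 untested genes stay dark in all libraries.

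In DMSO the soluble members led. ABCF1, which binds initiation factor eIF2, averaged 95.9 ± 53.7 FPKM in SKM-1 (SD, n = 2, here and below) and 83.9 ± 4.31 FPKM in NCI-H1299, the highest ABC level in both. ABCE1, which splits ribosomes after translation ends, led with 50.5 ± 7.51 FPKM in MV-4-11 and 81.2 ± 5.54 FPKM in Kasumi-1. In SKM-1, ABCE1 averaged 78.3 ± 16.8 FPKM, and the libraries of ABCF1 (57.9 and 134 FPKM) lie on both sides of those of ABCE1 (66.4 and 90.2 FPKM), so the order of the leading pair is not settled there. The mitochondrial carrier ABCB10 came next in SKM-1 with 32.9 ± 0.120 FPKM, its libraries within the range of the peroxisomal carrier ABCD3, the next in order (31.9 ± 7.23 FPKM). ABCB10 was also second in MV-4-11 with 35.3 ± 3.71 FPKM, where its lower library (32.7 FPKM) was below the higher library of ABCF2 (34.8 FPKM). ABCF2 was the third member in Kasumi-1 and NCI-H1299, with 35.2 ± 0.673 and 43.1 ± 0.349 FPKM.

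Set against NCI-H1299 DMSO, the mean of the leukaemia lines in DMSO was higher for 5 and lower for 7 of the 16 ABC genes tested in all lines, when 29.3% and 35.9% of all tested genes were called higher and lower (65.2% in either direction). ABCB10, which carries haem precursors or products in erythroid mitochondria, was higher with a log2 difference of 2.25 ± 0.10, adjusted p = 2.84e-11 (standard error, as for all log2 differences below). It averaged 32.9 ± 0.120, 35.3 ± 3.71 and 17.4 ± 0.898 FPKM in the leukaemia lines SKM-1, MV-4-11 and Kasumi-1, against 4.94 ± 0.174 FPKM in NCI-H1299, and no leukaemia library overlapped NCI-H1299. ABCA7, a phospholipid exporter, was higher by 1.16 ± 0.19, although Kasumi-1 had 2.51 ± 0.604 FPKM of ABCA7 and NCI-H1299 3.72 ± 0.345 FPKM. ABCE1 and ABCD3 were higher by 0.57 ± 0.16 and 0.46 ± 0.14, but not in MV-4-11 alone. There ABCD3 read 11.3 and 9.98 FPKM with DMSO, below the 13.8 and 13.3 FPKM of NCI-H1299 DMSO. ABCE1 read 55.81 and 45.19 FPKM in MV-4-11 DMSO, which overlapped the 46.08 and 45.21 FPKM of NCI-H1299 DMSO. ABCA3, which loads surfactant lipids in alveolar cells of the lung, was the most lowered in leukaemia lines, at -1.64 ± 0.20, adjusted p = 2.51e-06. Its DMSO libraries read 6.87 and 3.12 FPKM in SKM-1, 1.40 and 1.24 in MV-4-11, 1.61 and 1.43 in Kasumi-1 and 9.47 and 8.55 in NCI-H1299. The mitochondrial carrier ABCB8 (-1.08 ± 0.22), ABCF1 (-0.78 ± 0.20), ABCC10 (-0.71 ± 0.18), ABCF2 (-0.66 ± 0.13), the lysosomal cobalamin carrier ABCD4 (-0.57 ± 0.17) and ABCC5 (-0.34 ± 0.10) were also lower. ABCF1 and ABCD4 were not lower in every leukaemia line. ABCF1 had 57.9 and 134 FPKM in SKM-1 DMSO, against 80.8 and 86.9 FPKM in NCI-H1299 DMSO. ABCD4 had 18.3 and 16.5 FPKM in Kasumi-1 DMSO, against 17.4 and 15.5 FPKM in NCI-H1299 DMSO. Errors of a mean over the leukaemia lines take those lines as fixed.

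With ABBV-075, 9 ABC genes rose and 7 fell of the 22 tested in SKM-1, against DMSO, while 32% of all tested genes rose and 29.2% fell (61.3% in either direction). In MV-4-11, 10 rose and 3 fell of 22, beside 20.3% and 22.1% of all tested genes (42.4% in either direction). Kasumi-1 had 5 that rose and 6 that fell of 18, beside 24.7% and 32.6% (57.3% in either direction). NCI-H1299 had 10 that rose and 4 that fell of 23, beside 20.6% and 26.5% (47.1% in either direction). As shares of the tested ABC genes the higher calls came to 40.9%, 45.5%, 27.8% and 43.5%, and the lower calls to 31.8%, 13.6%, 33.3% and 17.4%, in the same order of lines. The median log2 difference over tested ABC genes was 0.27 in SKM-1, 0.38 in MV-4-11, 0.17 in Kasumi-1 and 0.32 in NCI-H1299, where the medians over all tested genes were 0.05, -0.01, -0.09 and -0.06. These counts and medians cover only genes that passed the filter on low values. ABCB6 in SKM-1 passed through its ABBV-075 libraries alone, and ABCC1 in SKM-1 and ABCC3 in NCI-H1299 passed without any ABBV-075 library at 1 FPKM, so their place among the tested genes depended on the group in which they were higher. Without them 8 rose and 6 fell of 20 in SKM-1, and 10 rose and 3 fell of 22 in NCI-H1299. With no filter on low values, the adjusted p with ABBV-075 was 1.80e-05 for ABCB6 in SKM-1, 9.16e-08 for ABCC1 in SKM-1 and 0.00356 for ABCC3 in NCI-H1299.

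Markers of the blood lineage also changed in the leukaemia lines. With ABBV-075, 1 rose and 5 fell of the 7 tested in SKM-1, beside 32% and 29.2% of all tested genes. In Kasumi-1 1 rose and 6 fell of 8, beside 24.7% and 32.6%. In MV-4-11 2 fell of 7, beside 22.1% lower, a count near that share. The 8 summed to 788 and 1045 FPKM in the SKM-1 libraries with ABBV-075, against 3102 and 4705 FPKM with DMSO. The sums were 737 and 743 FPKM with ABBV-075, against 1007 and 1225 FPKM with DMSO in MV-4-11, and 3486 and 5863 FPKM with ABBV-075, against 5327 and 5746 FPKM with DMSO in Kasumi-1, where the groups overlapped. The granule enzyme gene MPO averaged 4484 FPKM with ABBV-075, against 4932 FPKM with DMSO in Kasumi-1. In SKM-1 it averaged 22.4 FPKM with ABBV-075, against 2851 FPKM with DMSO. The sums of Kasumi-1 and SKM-1 therefore mostly follow MPO. SPI1, a myeloid transcription factor, averaged 13.03 FPKM with ABBV-075 in SKM-1, against 134 FPKM with DMSO. LAPTM5 rose there, with 337 FPKM with ABBV-075, against 145 FPKM with DMSO, as did VIM, which encodes vimentin, with 122 FPKM with ABBV-075, against 32.6 FPKM with DMSO. In Kasumi-1, SPI1 averaged 2.96 FPKM with ABBV-075, against 48.4 FPKM with DMSO. Of 4 epithelial or carcinoma markers tested in NCI-H1299 (KRT8, KRT18, CAV1 and VIM), 2 rose and 1 fell with ABBV-075, beside 20.6% and 26.5% of all tested genes. VIM, which also averaged 298 FPKM in MV-4-11 DMSO, was not called in NCI-H1299 (0.01 ± 0.20). KRT8 and KRT18 averaged 422 and 918 FPKM with ABBV-075 there, against 155 and 369.9 FPKM with DMSO. CAV1 averaged 55.9 FPKM with ABBV-075, against 119 FPKM with DMSO. The part of these changes in the ABC results was not tested. In these bulk libraries, fewer cells that carry an RNA and less of that RNA per cell cannot be told apart.

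With ABBV-744, 2 rose and 3 fell of 22 in SKM-1, beside 14.9% and 12.5% of all tested genes (27.4% in either direction). In MV-4-11 3 rose and 0 fell (limma, adjusted p), beside 4.61% and 6.75% (11.4% in either direction). Kasumi-1 had 2 that rose and 4 that fell of 18, beside 8.69% and 15% (23.6% in either direction). In NCI-H1299 1 rose and 0 fell of 23, beside 1.4% and 3.95% (5.35% in either direction). At an unadjusted p under 0.05, 1 fell in MV-4-11 and 0 in NCI-H1299. The compounds share the DMSO libraries of each line, so their changes against DMSO are given side by side and not as a sign of likeness.

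**Figure D2:**
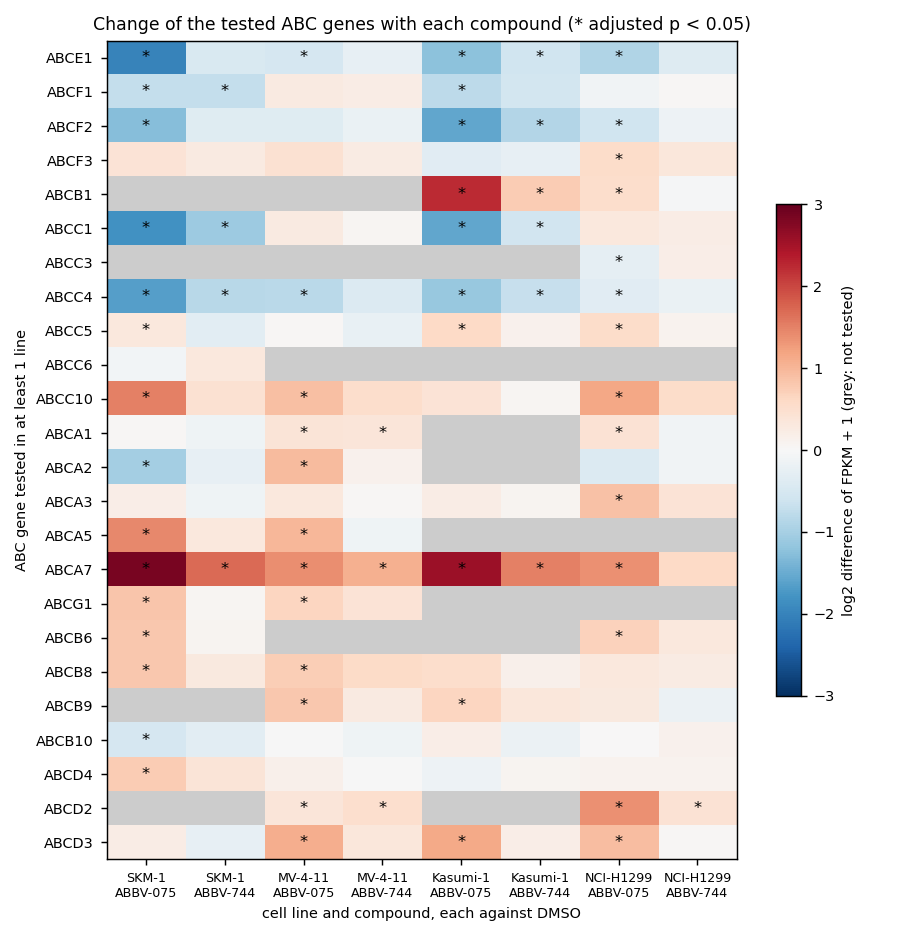
Log2 difference of FPKM + 1 of 24 of the 26 ABC genes tested in at least 1 line (rows, grouped by role) with ABBV-075 and ABBV-744 in each line (columns), each against DMSO, from blue (lower) to red (higher), with grey where a gene was not tested and an asterisk at an adjusted p under 0.05. Among the asterisks with ABBV-075, ABCB6 in SKM-1 passed the filter through its ABBV-075 libraries alone. ABCC1 in SKM-1 and ABCC3 in NCI-H1299 passed it without any ABBV-075 library at 1 FPKM. ABCA7 is on the red side in all 8 columns and ABCE1 and ABCC4 on the blue side in all 8. Some of the ABBV-744 shades of ABCE1 and ABCC4 are pale and carry no asterisk. ABCC1 is blue in SKM-1 and Kasumi-1 and pale in MV-4-11 and NCI-H1299.

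The members that were called in the same direction with ABBV-075 in all 4 lines were 3: ABCA7 rose, and ABCC4 and ABCE1 fell. The 250 bases before the annotated start of each are shown, since these are the promoter regions of the members that shared a direction in every line, although the size of each change depended on the line. They come from RefSeq on GRCh38.p14 and are written 5′ to 3′ on the strand of the gene. ABCA7 lies on the plus strand (window chr19:1039857-1040106), ABCC4 on the minus strand (chr13:95301452-95301701) and ABCE1 on the plus strand (chr4:145098061-145098310). Capitals mark any match, on either strand, to the E-box CACGTG, the CCAAT box, the TATA box TATAAA, the GC box GGGCGG, the AP-1 site TGAGTCA, the cyclic AMP response element TGACGTCA or the LXR element, AGGTCA repeated after 4 bases.
ABCA7: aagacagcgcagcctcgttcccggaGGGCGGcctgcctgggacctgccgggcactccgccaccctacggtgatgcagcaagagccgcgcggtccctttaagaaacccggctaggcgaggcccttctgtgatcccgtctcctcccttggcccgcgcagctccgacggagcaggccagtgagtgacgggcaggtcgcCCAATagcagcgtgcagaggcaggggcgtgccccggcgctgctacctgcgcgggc
ABCC4: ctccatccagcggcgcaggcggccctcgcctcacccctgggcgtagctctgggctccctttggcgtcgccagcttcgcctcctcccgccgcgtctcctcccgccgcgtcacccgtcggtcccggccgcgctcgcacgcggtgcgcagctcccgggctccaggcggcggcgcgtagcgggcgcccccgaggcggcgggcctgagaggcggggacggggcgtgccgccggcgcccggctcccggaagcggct
ABCE1: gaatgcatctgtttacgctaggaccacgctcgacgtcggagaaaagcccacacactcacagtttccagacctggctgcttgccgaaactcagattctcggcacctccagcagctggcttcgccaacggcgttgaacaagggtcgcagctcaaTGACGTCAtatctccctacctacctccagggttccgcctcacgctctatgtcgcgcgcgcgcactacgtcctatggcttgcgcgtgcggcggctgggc

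The ABCA7 window held 1 GC box and 1 CCAAT box, the ABCE1 window 1 cyclic AMP response element, and the ABCC4 window none of these letters. A promoter window was found for 35 of the 45 members, 53 windows in all. The GC box was in 25 of these 53 windows (47.2%) and in 42.6% of 35116 windows of all genes. The CCAAT box was in 11 (20.8%), against 32% of all windows. The E-box, which MYC can bind, was in 9 (17%), against 6.34% of all windows. These 9 belong to 8 genes, since a pair of ABCG2 windows that overlap by 200 bases is counted separately, and the 25 windows with a GC box belong to 21 genes with the same overlap. The cyclic AMP response element was in 1 of the 53 (1.89%), that of ABCE1, against 1.65%. The AP-1 site was also in 1, against 4.2%, the TATA box in 6, against 10.7%, and the LXR element in none, against 0.0142%. Only 28 of the 53 windows belong to tested members, 21 genes. Of these 28 windows, 19 held a GC box, 7 a CCAAT box, 5 an E-box and 3 a TATA box. Such matches describe the letters in these windows and show no binding.

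Among the soluble genes, ABCE1 fell with ABBV-075 in all 4 lines. It read 15.7 and 21.9 FPKM with ABBV-075, 60.9 and 52.2 with ABBV-744 and 66.4 and 90.2 with DMSO in SKM-1, and 28.9 and 39.5 FPKM with ABBV-075, 54.1 and 51.97 with ABBV-744 and 77.3 and 85.2 with DMSO in Kasumi-1. NCI-H1299 libraries had 22.3 and 25.6 FPKM with ABBV-075, 36.7 and 32.4 with ABBV-744 and 46.1 and 45.2 with DMSO, and MV-4-11 libraries 39.05 and 31.2 FPKM with ABBV-075, 47.2 and 37.4 with ABBV-744 and 55.8 and 45.2 with DMSO. In each line both ABBV-075 libraries lay below both DMSO libraries, and in SKM-1, Kasumi-1 and NCI-H1299 the ABBV-744 libraries lay between. The log2 difference with ABBV-075 was -2.0 ± 0.20, adjusted p = 3.78e-07 in SKM-1. It was -1.24 ± 0.20, adjusted p = 7.05e-05 in Kasumi-1 and -0.91 ± 0.20, adjusted p = 0.00149 in NCI-H1299. In MV-4-11 it was -0.51 ± 0.20, adjusted p = 0.0486, and this call was lost in 17 of 30 alternatives, with adjusted p up to 0.293. Among them were the fits without MV-4-11 DMSO replicate 1 (adjusted p = 0.282) and without MV-4-11 ABBV-075 replicate 2 (adjusted p = 0.293), and 12 that left out a library of another line. With ABBV-744, ABCE1 was called in Kasumi-1 (-0.60 ± 0.20, adjusted p = 0.0374). That call was lost without any of the 4 Kasumi-1 libraries compared and in 3 other alternatives, with adjusted p up to 0.175. In SKM-1, MV-4-11 and NCI-H1299 it was not called (-0.45, 95% interval -0.87 to -0.03, adjusted p = 0.104 in SKM-1). ABCE1 overlaps ANAPC10 and OTUD4 on the opposite strand, and whether strand was used in counting is not given in the sources used here.

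ABCF2 also fell in 3 lines with ABBV-075. Its FPKM were 13.7 and 9.14 FPKM with ABBV-075, 18.6 and 18.8 with ABBV-744 and 35.6 and 34.7 with DMSO in Kasumi-1, and 6.08 and 6.31 FPKM with ABBV-075, 12.3 and 12.8 with ABBV-744 and 20.2 and 13.5 with DMSO in SKM-1. In NCI-H1299 they were 28.6 and 28.1 FPKM with ABBV-075, 39.2 and 38.1 with ABBV-744 and 43.3 and 42.8 with DMSO, and in MV-4-11 25.4 and 26.6 FPKM with ABBV-075, 28.9 and 29.7 with ABBV-744 and 32.5 and 34.8 with DMSO. ABBV-075 libraries were below DMSO libraries in all 4 lines with no overlap. The log2 difference was -1.57 ± 0.16, adjusted p = 6.91e-07 in Kasumi-1, -1.28 ± 0.16, adjusted p = 4.67e-06 in SKM-1 and -0.59 ± 0.16, adjusted p = 0.00702 in NCI-H1299. MV-4-11 missed the threshold (-0.36, 95% interval -0.70 to -0.02, adjusted p = 0.0859). With ABBV-744, ABCF2 fell in Kasumi-1 (-0.88 ± 0.16, adjusted p = 0.00102) and was not called in the other lines. ABCF1 fell with ABBV-075 in SKM-1 (-0.71 ± 0.25, adjusted p = 0.0212) and Kasumi-1 (-0.79 ± 0.25, adjusted p = 0.0122). The SKM-1 value rests on DMSO replicate 2, which read 134 FPKM where replicate 1 read 57.9 FPKM. Without replicate 2 it was -0.11 (adjusted p = 0.517) and without replicate 1 -1.30. The SKM-1 call was also lost without ABBV-075 replicate 1 or 2 (adjusted p = 0.0511 and 0.0943). The Kasumi-1 call was lost without DMSO replicate 1 or ABBV-075 replicate 2 (adjusted p = 0.0784 and 0.112). ABCF1 was also called lower with ABBV-744 in SKM-1 (-0.72 ± 0.25, adjusted p = 0.0402), where 17 of 29 alternatives ended the call, and it was -0.13 without DMSO replicate 2. In MV-4-11 ABCF1 had 36.9 and 37.4 FPKM with ABBV-075, 36.9 and 35.1 with ABBV-744 and 30.3 and 30.9 with DMSO, with both ABBV-075 libraries above both DMSO libraries, and was not called (0.27, 95% interval -0.25 to 0.80, adjusted p = 0.405 with ABBV-075). NCI-H1299 was not called either (-0.11, 95% interval -0.63 to 0.42, adjusted p = 0.754).

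ABCF3, the human relative of yeast GCN20, which works with the GCN1 protein in that species, rose with ABBV-075 in NCI-H1299 (0.56 ± 0.20, adjusted p = 0.0305), a call lost without any of the 4 libraries compared (adjusted p = 0.0811 to 0.124), and was not called in the leukaemia lines, where the log2 difference ran from -0.34 to 0.45. Genes that work beside these proteins in ribosome recycling, rescue and initiation were counted as a list of 19. With ABBV-075, 1 rose and 9 fell in SKM-1, where 32% and 29.2% of all tested genes rose and fell. In MV-4-11 2 rose and 2 fell, beside 20.3% and 22.1%, and in Kasumi-1 1 rose and 8 fell, beside 24.7% and 32.6%. In NCI-H1299 0 rose by limma (2 at an unadjusted p under 0.05) and 3 fell of 18 tested. There the shares of all tested genes were 20.6% and 26.5%. EIF3J, an initiation factor that joins ABCE1 in recycling, fell in SKM-1 (-1.65 ± 0.38, adjusted p = 0.00161), as did EIF5B (-1.53 ± 0.42, adjusted p = 0.00513) and NEMF (-1.12 ± 0.35, adjusted p = 0.0121). GCN1L1, the human GCN1, fell in Kasumi-1 (-1.30 ± 0.21, adjusted p = 6.64e-05). HBS1L and MCTS1 were not called in SKM-1, at -0.12 ± 0.18 and 0.55 ± 0.26. The list's median log2 difference was -0.49 in SKM-1, -0.07 in MV-4-11, -0.47 in Kasumi-1 and -0.05 in NCI-H1299.

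As a share of the summed ABC FPKM, the 4 soluble genes took 26.5% with ABBV-075, 40.2% with ABBV-744 and 50.7% with DMSO in SKM-1 (means of 2 libraries). The shares were 29.7%, 35.2% and 40.5% in MV-4-11, 29.05%, 42.4% and 53.6% in Kasumi-1, and 43.9%, 53.4% and 57.1% in NCI-H1299, in the same order of treatments. The share was lowest with ABBV-075, and ABBV-744 lay between ABBV-075 and DMSO, in all 4 lines. The share depends on the other genes too. The soluble sum itself was 105 and 102 FPKM with ABBV-075, 145 and 144 with ABBV-744 and 168 and 252 with DMSO in SKM-1, and 87.7 and 80.3 FPKM with ABBV-075, 117 and 113 with ABBV-744 and 176 and 176 with DMSO in Kasumi-1. In NCI-H1299 it was 165 and 164 FPKM with ABBV-075, 190.3 and 185 with ABBV-744 and 193 and 198 with DMSO. In MV-4-11 it moved less, with 124 and 119.5 FPKM with ABBV-075, 132 and 124 with ABBV-744 and 134 and 129 with DMSO, while the lipid and sterol genes summed to 106 and 119 FPKM with ABBV-075, 70.9 and 89.3 with ABBV-744 and 45.97 and 52.7 with DMSO. Mean summed ABC FPKM was 392 with ABBV-075, 359 with ABBV-744 and 410.3 with DMSO in SKM-1, 410.3, 364 and 325 in MV-4-11, 289 and 271 with the compounds and 329 with DMSO in Kasumi-1, and 374, 352 and 342 in NCI-H1299.

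**Figure D3:**
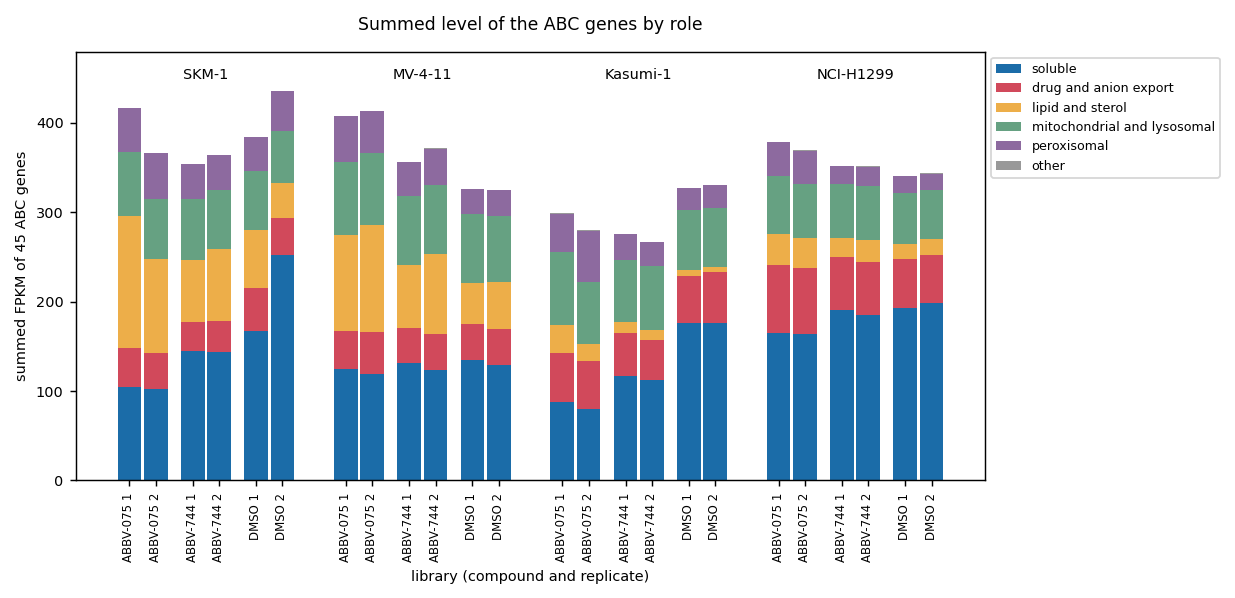
Summed FPKM of the ABC genes in each of the 24 libraries (bars, by line and treatment), stacked by role. The lowest block, the 4 soluble genes, averages 26.5%, 29.7%, 29.05% and 43.9% of the bar with ABBV-075 in SKM-1, MV-4-11, Kasumi-1 and NCI-H1299, against 50.7%, 40.5%, 53.6% and 57.1% with DMSO.

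Among exporters of drugs and organic anions, ABCC4 (MRP4), which exports cyclic nucleotides and prostaglandins, fell in every line with ABBV-075. SKM-1 libraries read 3.67 and 3.87 FPKM with ABBV-075, 7.57 and 7.14 with ABBV-744 and 12.7 and 15.3 with DMSO, and MV-4-11 libraries 5.65 and 5.54 FPKM with ABBV-075, 8.02 and 7.55 with ABBV-744 and 12.03 and 9.31 with DMSO. In Kasumi-1 the values were 5.25 and 6.38 FPKM with ABBV-075, 8.41 and 7.96 with ABBV-744 and 12.6 and 15.2 with DMSO, and in NCI-H1299 9.42 and 10.2 FPKM with ABBV-075, 11.2 and 10.7 with ABBV-744 and 13.2 and 12.3 with DMSO. All ABBV-075 libraries lay below the ABBV-744 libraries of their line, and these below the DMSO libraries. The log2 difference with ABBV-075 was -1.65 ± 0.13, adjusted p = 2.38e-08 in SKM-1. It was -0.81 ± 0.13, adjusted p = 9.66e-05 in MV-4-11 and -1.13 ± 0.13, adjusted p = 2.16e-06 in Kasumi-1. In NCI-H1299 it was -0.35 ± 0.13, adjusted p = 0.0336. That call was lost when libraries were rescaled by medians of ratios (adjusted p = 0.115) and without NCI-H1299 DMSO replicate 1 or 2 or ABBV-075 replicate 1 or 2 (adjusted p = 0.161, 0.0719, 0.163 and 0.0680). The mean response of the leukaemia lines was -1.20 ± 0.07, adjusted p = 1.02e-09, and it differed from that of NCI-H1299 by -0.85 ± 0.15, adjusted p = 8.51e-04. With ABBV-744, ABCC4 fell in SKM-1 (-0.84 ± 0.13, adjusted p = 2.03e-04) and Kasumi-1 (-0.69 ± 0.13, adjusted p = 0.00108), and a fit of each line alone ended both calls (adjusted p = 0.0653 and 0.0566). MV-4-11 (-0.40, 95% interval -0.67 to -0.13, adjusted p = 0.0564) and NCI-H1299 (-0.21, 95% interval -0.48 to 0.06, adjusted p = 0.516) were not called.

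ABCC1 (MRP1), which exports glutathione conjugates and many drugs, parted the lines. In SKM-1 it read 0.494 and 0.421 FPKM with ABBV-075, 1.24 and 1.58 with ABBV-744 and 3.43 and 4.89 with DMSO, and in Kasumi-1 7.68 and 5.23 FPKM with ABBV-075, 13.99 and 12.9 with ABBV-744 and 19.6 and 21.5 with DMSO. MV-4-11 had 9.64 and 9.79 FPKM with ABBV-075, 7.91 and 8.59 with ABBV-744 and 7.68 and 8.13 with DMSO, and NCI-H1299 9.87 and 9.96 FPKM with ABBV-075, 9.497 and 8.88 with ABBV-744 and 7.70 and 7.75 with DMSO. In SKM-1 and Kasumi-1 the ABBV-075 libraries lay below the others, while in MV-4-11 and NCI-H1299 they lay above the DMSO libraries. In SKM-1, ABCC1 passed the filter without any ABBV-075 library at 1 FPKM, so its value there with no filter is given. The ABBV-075 log2 difference was -1.81, adjusted p = 9.16e-08 in SKM-1 and -1.55 ± 0.15, adjusted p = 2.89e-07 in Kasumi-1. It was not called in MV-4-11 (0.27, 95% interval -0.04 to 0.58, adjusted p = 0.157) or NCI-H1299 (0.32, 95% interval 0.01 to 0.63, adjusted p = 0.0807). The difference between the SKM-1 and MV-4-11 responses was -2.08 ± 0.21, adjusted p = 3.45e-06. A test of any difference between the 4 lines gave an adjusted p of 1.06e-06, and the mean leukaemia response differed from that of NCI-H1299 by -1.35 ± 0.17, adjusted p = 4.54e-05. These tests between lines kept the filter, which ABCC1 passed in SKM-1 through its DMSO and ABBV-744 libraries. Its entry into them thus depended on groups in which it was higher. ABBV-744 gave -1.09 ± 0.15, adjusted p = 6.57e-05 in SKM-1 and -0.57 ± 0.15, adjusted p = 0.00955 in Kasumi-1. The Kasumi-1 call was lost without Kasumi-1 DMSO replicate 2 (adjusted p = 0.0755) or ABBV-744 replicate 2 (adjusted p = 0.0720) and in a fit of the line alone (adjusted p = 0.124). ABCC1 was the 1 of 16 genes whose ABBV-744 response depended on the line (adjusted p = 0.00440), beside 6.5% of all tested genes.

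**Figure D4:**
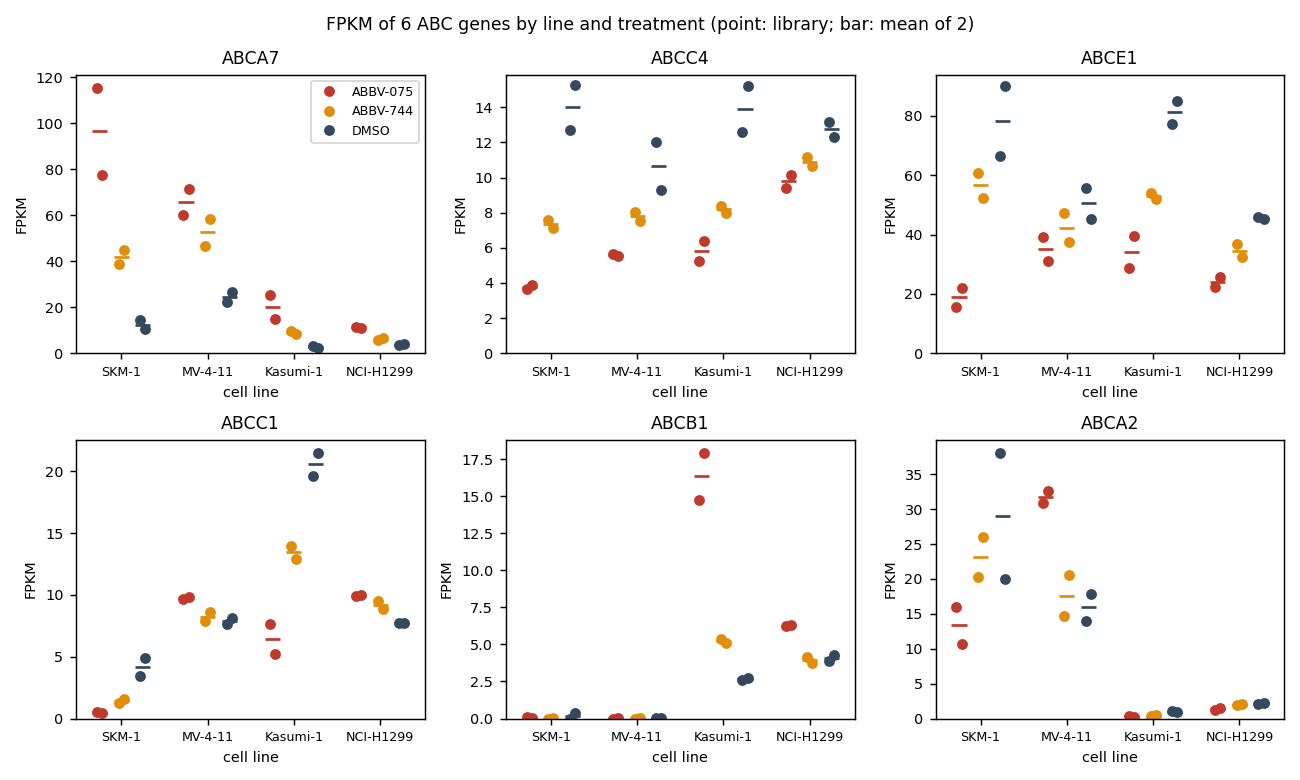
FPKM of ABCA7, ABCC4, ABCE1, ABCC1, ABCB1 and ABCA2 in every library (points) with the mean of each group of 2 (bars), by line and treatment, each panel on a linear axis from 0. ABCA7 reaches 115 and 77.4 FPKM with ABBV-075 in SKM-1, against 14.3 and 10.4 FPKM with DMSO, and ABCB1 reaches 14.7 and 17.9 FPKM with ABBV-075 in Kasumi-1, against 2.63 and 2.74 FPKM with DMSO.

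ABCB1 (P-glycoprotein, MDR1), the best known exporter of chemotherapy drugs, passed the filter in Kasumi-1 and NCI-H1299. Kasumi-1 libraries had 14.7 and 17.9 FPKM with ABBV-075, 5.38 and 5.10 with ABBV-744 and 2.63 and 2.74 with DMSO. NCI-H1299 libraries had 6.23 and 6.30 FPKM with ABBV-075, 4.18 and 3.72 with ABBV-744 and 3.85 and 4.25 with DMSO. In Kasumi-1 the 3 treatments did not overlap. The log2 difference was 2.23 ± 0.12, adjusted p = 1.00e-09 with ABBV-075 and 0.76 ± 0.12, adjusted p = 4.40e-04 with ABBV-744. In NCI-H1299 it was 0.53 ± 0.12, adjusted p = 0.00274 with ABBV-075 and was not called with ABBV-744 (-0.03, 95% interval -0.30 to 0.24, adjusted p = 0.967). With a pseudocount of 0.1 the Kasumi-1 ABBV-744 call and the NCI-H1299 ABBV-075 call were lost (adjusted p = 0.179 and 0.319). The ABBV-075 response was larger in Kasumi-1 than in NCI-H1299 by 1.70 ± 0.18, adjusted p = 7.34e-06. ABCB1 reached at most 0.392 FPKM in SKM-1 and 0.0279 FPKM in MV-4-11. ABCB1 overlaps RUNDC3B on the opposite strand, which reached at most 2.89 FPKM in any library. ABCG2 (breast cancer resistance protein) was not tested in any line. In SKM-1 it read 0.0197 and 0.0376 FPKM with ABBV-075, 0.414 and 0.614 with ABBV-744 and 1.24 and 0.889 with DMSO, the ABBV-075 libraries below the ABBV-744 libraries and these below the DMSO libraries.

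ABCC10 (MRP7), which can export taxanes, rose with ABBV-075 in 3 lines. SKM-1 had 15.6 and 12.02 FPKM with ABBV-075, 5.51 and 6.76 with ABBV-744 and 5.23 and 3.28 with DMSO, and MV-4-11 13.3 and 16.01 FPKM with ABBV-075, 9.68 and 12.6 with ABBV-744 and 6.78 and 8.09 with DMSO. NCI-H1299 had 20.5 and 19.1 FPKM with ABBV-075, 11.9 and 13.1 with ABBV-744 and 8.37 and 8.19 with DMSO, and Kasumi-1 6.24 and 3.42 FPKM with ABBV-075, 3.30 and 3.52 with ABBV-744 and 3.48 and 3.003 with DMSO. In SKM-1, MV-4-11 and NCI-H1299 the ABBV-075 libraries lay above the DMSO libraries, while in Kasumi-1 the second ABBV-075 library lay within the range of DMSO. The log2 difference was 1.51 ± 0.22, adjusted p = 2.00e-05 in SKM-1, 0.89 ± 0.22, adjusted p = 0.00356 in MV-4-11 and 1.16 ± 0.22, adjusted p = 3.98e-04 in NCI-H1299. Kasumi-1 was not called (0.42, 95% interval -0.04 to 0.88, adjusted p = 0.112). With ABBV-744 ABCC10 was not called in any single line, with log2 differences of 0.06 to 0.54. It overlaps DLK2 on the opposite strand, which reached at most 4.45 FPKM. ABCC5 (MRP5), an exporter of cyclic nucleotides, rose with ABBV-075 in Kasumi-1 (0.59 ± 0.12, adjusted p = 5.32e-04) and NCI-H1299 (0.54 ± 0.12, adjusted p = 0.00145). In SKM-1 it was called at 0.32 ± 0.12, adjusted p = 0.0282, but without SKM-1 DMSO replicate 2 the difference was 0.10 (adjusted p = 0.379) and without DMSO replicate 1 it was 0.54. That call was also lost without ABBV-075 replicate 1 or 2 (adjusted p = 0.0889 and 0.0813) and in a fit of the line alone (adjusted p = 0.250). ABCC3 (MRP3), an exporter of bile acid conjugates, was tested in NCI-H1299 only. It passed the filter there without any ABBV-075 library at 1 FPKM, so its value with no filter is given. It was lower with ABBV-075 (-0.26, adjusted p = 0.00356), with 0.638 and 0.636 FPKM with ABBV-075, 1.08 and 1.43 with ABBV-744 and 1.01 and 0.920 with DMSO. With the filter, a pseudocount of 0.1 (adjusted p = 0.0932) or a fit of the line alone (adjusted p = 0.0620) ended the call. ABCC6 was tested in SKM-1 only and not called (-0.09, 95% interval -0.50 to 0.32, adjusted p = 0.718 with ABBV-075). Rows of its near-identical pseudogenes ABCC6P1 and ABCC6P2 are also in the table, so reads may be split among them.

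Among carriers of lipids and sterols, ABCA7, a phospholipid exporter that also bears on phagocytosis and is a risk gene for Alzheimer's disease, rose in every line with ABBV-075. SKM-1 libraries had 115 and 77.4 FPKM with ABBV-075, 38.9 and 44.9 with ABBV-744 and 14.3 and 10.4 with DMSO. MV-4-11 libraries had 59.97 and 71.4 FPKM with ABBV-075, 46.7 and 58.4 with ABBV-744 and 22.4 and 26.7 with DMSO. In Kasumi-1 the values were 25.5 and 14.8 FPKM with ABBV-075, 9.47 and 8.55 with ABBV-744 and 2.94 and 2.08 with DMSO, and in NCI-H1299 11.4 and 11.1 FPKM with ABBV-075, 5.72 and 6.49 with ABBV-744 and 3.47 and 3.96 with DMSO. In each line the ABBV-075 libraries were all above the ABBV-744 libraries, and these above the DMSO libraries. The ABBV-075 log2 difference was 2.86 ± 0.23, adjusted p = 4.50e-08 in SKM-1 and 2.56 ± 0.23, adjusted p = 2.07e-07 in Kasumi-1. In MV-4-11 it was 1.38 ± 0.23, adjusted p = 1.89e-04 and in NCI-H1299 1.38 ± 0.23, adjusted p = 1.71e-04. None of these 4 calls was lost under any alternative. The mean response of the leukaemia lines was 2.27 ± 0.13, adjusted p = 6.83e-10, which was 0.88 ± 0.27, adjusted p = 0.0317, above that of NCI-H1299. Within the leukaemia lines, MV-4-11 had the same rounded value as NCI-H1299. With ABBV-744 ABCA7 rose in SKM-1 (1.70 ± 0.23, adjusted p = 8.30e-05), Kasumi-1 (1.52 ± 0.23, adjusted p = 2.49e-04) and MV-4-11 (1.06 ± 0.23, adjusted p = 0.00703). The MV-4-11 call was lost without MV-4-11 DMSO replicate 1 (adjusted p = 0.0776) or ABBV-744 replicate 2 (adjusted p = 0.0898). NCI-H1299 was not called (0.59, 95% interval 0.09 to 1.09, adjusted p = 0.201), and the responses of the leukaemia lines and NCI-H1299 to ABBV-744 were not called different (0.84 ± 0.27, adjusted p = 0.173).

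ABCA2, a carrier of lysosomes and endosomes known mostly from brain lipids, moved in opposite directions in a pair of leukaemia lines. It read 16.02 and 10.7 FPKM with ABBV-075, 20.2 and 26.1 with ABBV-744 and 38.04 and 20.03 with DMSO in SKM-1 and 30.8 and 32.5 FPKM with ABBV-075, 14.7 and 20.5 with ABBV-744 and 13.9 and 17.9 with DMSO in MV-4-11. NCI-H1299 libraries read 1.25 and 1.55 FPKM with ABBV-075, 1.88 and 2.05 with ABBV-744 and 2.13 and 2.26 with DMSO. The gene was not tested in Kasumi-1, where it read 0.354 and 0.236 FPKM with ABBV-075, 0.355 and 0.462 with ABBV-744 and 1.13 and 0.883 with DMSO. With ABBV-075 both SKM-1 libraries were below DMSO and both MV-4-11 libraries above it. The log2 difference was -1.02 ± 0.24, adjusted p = 0.00178 in SKM-1 and 0.96 ± 0.24, adjusted p = 0.00470 in MV-4-11, and the difference between these responses was -1.98 ± 0.34, adjusted p = 5.05e-04. In SKM-1 the value was -0.58 without SKM-1 DMSO replicate 1, and a fit of the line alone gave an adjusted p of 0.0558. The MV-4-11 call was lost without MV-4-11 DMSO replicate 1 (adjusted p = 0.0550). C9orf139 overlaps ABCA2 on the opposite strand and reached at most 11.0 FPKM. ABCA5, a lysosomal carrier, was tested in SKM-1 and MV-4-11. It had 4.66 and 6.26 FPKM with ABBV-075, 2.17 and 1.71 with ABBV-744 and 0.785 and 2.15 with DMSO in SKM-1 and 5.36 and 5.14 FPKM with ABBV-075, 1.73 and 2.01 with ABBV-744 and 2.78 and 1.58 with DMSO in MV-4-11, with ABBV-075 libraries above all others in both. It rose by 1.43 ± 0.22, adjusted p = 3.41e-05 in SKM-1 and 1.0 ± 0.22, adjusted p = 0.00157 in MV-4-11 with ABBV-075, and was not called with ABBV-744. Below the filter, ABCA5 read 0.533 and 0.945 FPKM with ABBV-075 in Kasumi-1, against 0.0538 and 0.0444 FPKM with DMSO. In NCI-H1299 it read 0.822 and 0.735 FPKM with ABBV-075, against 0.232 and 0.368 FPKM with DMSO.

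ABCA1, which hands cholesterol and phospholipid to apolipoprotein A-I, rose with ABBV-075 in NCI-H1299 (0.43 ± 0.09, adjusted p = 0.00132) and MV-4-11 (0.39 ± 0.09, adjusted p = 0.00297), and was not called in SKM-1 (0.04, 95% interval -0.16 to 0.23, adjusted p = 0.760). The MV-4-11 call was lost with a pseudocount of 0.1 (adjusted p = 0.0708) and without MV-4-11 ABBV-075 replicate 1 (adjusted p = 0.0595). With ABBV-744 it rose in MV-4-11 (0.36 ± 0.09, adjusted p = 0.0196), a call lost without any of the 4 libraries compared and in 2 other alternatives, with adjusted p up to 0.223. ABCA1 stayed between 0.03 and 0.294 FPKM in Kasumi-1. ABCG1, which passes cholesterol to high-density lipoprotein, rose with ABBV-075 in SKM-1 (0.82 ± 0.15, adjusted p = 1.52e-04) and MV-4-11 (0.65 ± 0.15, adjusted p = 0.00192), at 2.25 to 2.39 FPKM, against 0.595 to 1.26 FPKM with DMSO in these lines. ABCA3 rose in NCI-H1299 alone among its 4 tests (0.87 ± 0.24, adjusted p = 0.00812), with 17.9 and 16.6 FPKM with ABBV-075, 11.2 and 13.5 with ABBV-744 and 9.47 and 8.55 with DMSO. That call was lost without NCI-H1299 DMSO replicate 2 (adjusted p = 0.0547) or ABBV-075 replicate 1 (adjusted p = 0.0515), and a dependence of the response on the line was not called (adjusted p = 0.267). A list of 18 genes of sterol handling and targets of the liver X receptors, which induce ABCA1 and ABCG1, went in both directions with ABBV-075. Higher and lower calls were 5 and 5 of 17 in SKM-1, beside 32% and 29.2% of all tested genes, and 8 and 1 of 16 in MV-4-11, beside 20.3% and 22.1%. They were 5 and 2 of 15 in Kasumi-1, beside 24.7% and 32.6%, and 4 and 2 of 18 in NCI-H1299, beside 20.6% and 26.5%. The SKM-1 counts are near the shares of all tested genes. SCD, a fatty acid desaturase, fell in SKM-1 (-1.92 ± 0.10, adjusted p = 3.87e-10), and NPC1, the lysosomal cholesterol exporter, rose in Kasumi-1 (1.52 ± 0.16, adjusted p = 9.65e-07). PLTP, the phospholipid transfer protein, rose in MV-4-11 (1.17 ± 0.21). NR1H2, one of the liver X receptors, was not called in SKM-1 (0.07 ± 0.25), nor APOE in NCI-H1299 (-0.28 ± 0.13).

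Of the carriers of mitochondria and lysosomes, ABCB6, linked to porphyrins, rose with ABBV-075 in NCI-H1299 (0.68 ± 0.11, adjusted p = 9.04e-05). It had 3.38 and 2.91 FPKM with ABBV-075, 2.38 and 2.09 with ABBV-744 and 1.44 and 1.73 with DMSO there. In SKM-1 it had 1.65 and 1.12 FPKM with ABBV-075, 0.475 and 0.406 with ABBV-744 and 0.293 and 0.424 with DMSO, the ABBV-075 libraries above all others and the only ones at 1 FPKM or more, so its test after the filter is not given. ABCB9, a lysosomal peptide carrier related to TAP, rose in MV-4-11 (0.82 ± 0.15, adjusted p = 5.04e-04) and Kasumi-1 (0.64 ± 0.15, adjusted p = 0.00238), the Kasumi-1 value being 0.39 without Kasumi-1 ABBV-075 replicate 1. ABCB9 overlaps ARL6IP4 on the opposite strand, which reached 172 FPKM where ABCB9 reached at most 4.04 FPKM, so its reads are uncertain. ABCB8 was called higher in SKM-1 (0.81 ± 0.27, adjusted p = 0.0150) and MV-4-11 (0.75 ± 0.27, adjusted p = 0.0328). Leaving out SKM-1 DMSO replicate 2 or ABBV-075 replicate 1 ended the SKM-1 call (adjusted p = 0.186 and 0.174), as did a fit of that line alone, and leaving out any of the 4 libraries compared ended the MV-4-11 call (adjusted p = 0.0737 to 0.146). ABCD4, which works in moving cobalamin out of lysosomes, rose in SKM-1 (0.77 ± 0.20, adjusted p = 0.00414), not called without SKM-1 ABBV-075 replicate 1 (adjusted p = 0.0581). ABCB10 fell in SKM-1 (-0.50 ± 0.13, adjusted p = 0.00264), not called in a fit of that line alone (adjusted p = 0.0622). None of these 5 genes was called with ABBV-744 in a single line.

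A list of 18 genes for mitochondrial haem and iron-sulphur synthesis had 2 higher and 6 lower calls with ABBV-075 in SKM-1, where all tested genes had 32% and 29.2%. It had 3 and 3 in MV-4-11, beside 20.3% and 22.1%, 3 and 8 in Kasumi-1, beside 24.7% and 32.6%, and 2 and 4 in NCI-H1299, beside 20.6% and 26.5%. The lower calls in SKM-1 and NCI-H1299 are near the shares of all tested genes. UROD, a haem synthesis enzyme, fell in Kasumi-1 (-2.14 ± 0.23, adjusted p = 1.08e-06), as did BOLA3 (-1.52 ± 0.17, adjusted p = 2.45e-06), of iron-sulphur assembly. FECH, which puts iron into haem, rose in SKM-1 (1.5 ± 0.39, adjusted p = 0.00379). ISCU and ALAS1 were not called there (0.15 ± 0.14 and 0.05 ± 0.26).

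Of the peroxisomal carriers, ABCD3 (PMP70), which takes up branched-chain and dicarboxylic fatty acids, rose with ABBV-075 in 3 lines. Kasumi-1 had 39.3 and 55.04 FPKM with ABBV-075, 25.3 and 22.04 with ABBV-744 and 20.1 and 20.8 with DMSO, and MV-4-11 25.9 and 21.7 FPKM with ABBV-075, 14.7 and 12.9 with ABBV-744 and 11.3 and 9.98 with DMSO. NCI-H1299 had 26.9 and 26.4 FPKM with ABBV-075, 13.5 and 14.5 with ABBV-744 and 13.8 and 13.3 with DMSO, and SKM-1 33.8 and 40.9 FPKM with ABBV-075, 27.4 and 25.00 with ABBV-744 and 26.8 and 36.98 with DMSO. In Kasumi-1, MV-4-11 and NCI-H1299 the ABBV-075 libraries lay above all ABBV-744 and DMSO libraries. In SKM-1 the groups overlapped. The log2 difference was 1.15 ± 0.17, adjusted p = 3.00e-05 in Kasumi-1, 1.09 ± 0.17, adjusted p = 8.32e-05 in MV-4-11 and 0.92 ± 0.17, adjusted p = 3.31e-04 in NCI-H1299. In SKM-1 it was not called (0.23, 95% interval -0.13 to 0.59, adjusted p = 0.245), and with ABBV-744 it was not called in any line. ABCD2, which takes up very long chain and polyunsaturated fatty acids, was tested in NCI-H1299, with 5.69 and 5.81 FPKM with ABBV-075, 2.26 and 2.84 with ABBV-744 and 1.59 and 1.64 with DMSO, and in MV-4-11, with 3.84 and 3.41 FPKM with ABBV-075, 4.13 and 4.03 with ABBV-744 and 2.79 and 2.41 with DMSO. NCI-H1299 ABBV-075 libraries were above all others of that line, while in MV-4-11 the ABBV-744 libraries were the highest. In NCI-H1299 it rose with ABBV-075 (1.37 ± 0.10, adjusted p = 2.57e-08) and ABBV-744 (0.44 ± 0.10, adjusted p = 0.0146). In MV-4-11 it rose with ABBV-075 (0.36 ± 0.10, adjusted p = 0.00753) and ABBV-744 (0.50 ± 0.10, adjusted p = 0.00322). The difference between the ABBV-075 responses of MV-4-11 and NCI-H1299 was -1.01 ± 0.14, adjusted p = 1.45e-04. All but the NCI-H1299 call with ABBV-075 were lost with a pseudocount of 0.1 (adjusted p = 0.140 to 0.307). The MV-4-11 calls were also lost without MV-4-11 DMSO replicate 2, and the ABBV-075 call without ABBV-075 replicate 1 (adjusted p = 0.0536 to 0.0842). The NCI-H1299 ABBV-744 call was lost without either DMSO library or ABBV-744 replicate 2 (adjusted p = 0.0889 to 0.205).

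Of 15 genes of peroxisomal fatty acid oxidation and assembly, 4 rose and 1 fell in SKM-1 with ABBV-075, beside 32% and 29.2% of all tested genes. In MV-4-11 7 rose and 0 fell (limma; 0 also at an unadjusted p under 0.05), beside 20.3% and 22.1%. Kasumi-1 had 5 that rose and 2 that fell, beside 24.7% and 32.6%, and NCI-H1299 6 that rose and 2 that fell, beside 20.6% and 26.5%. In SKM-1 the rises included ACSL1, which activates long-chain fatty acids (1.42 ± 0.13, adjusted p = 2.25e-07), and AMACR, a racemase of branched-chain oxidation (1.01 ± 0.13, adjusted p = 6.14e-06). ACSL4 fell there (-0.95 ± 0.16, adjusted p = 9.30e-05), and ELOVL1 and ACBD5 were not called (0.51 ± 0.25 and -0.17 ± 0.14). The list's median log2 difference was 0.06, 0.37, 0.01 and -0.01 in SKM-1, MV-4-11, Kasumi-1 and NCI-H1299.

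The peptide carriers TAP1 and TAP2 are ABC proteins with other symbols that load peptides on HLA class I. TAP1 rose in Kasumi-1 with ABBV-075 (0.81 ± 0.23, adjusted p = 0.00614), and TAP2 fell in NCI-H1299 (-1.27 ± 0.24, adjusted p = 3.92e-04). Their 9 partners in peptide loading had 2 higher and 4 lower calls in SKM-1, beside 32% and 29.2% of all tested genes, and 1 and 2 in MV-4-11, beside 20.3% and 22.1%. In Kasumi-1 the calls were 1 and 6, beside 24.7% and 32.6%, and in NCI-H1299 1 and 2, beside 20.6% and 26.5%. CALR and CANX, chaperones of the endoplasmic reticulum, fell in SKM-1 (-2.80 ± 0.19, adjusted p = 5.26e-09, and -1.31 ± 0.16), and ERAP1, which trims peptides, fell in Kasumi-1 (-1.24 ± 0.13). Among 18 genes for regulators of transporter genes, higher and lower calls with ABBV-075 were 9 and 7 of 17 in SKM-1, beside 32% and 29.2% of all tested genes, and 5 and 2 of 14 in MV-4-11, beside 20.3% and 22.1%. They were 6 and 6 of 13 in Kasumi-1, beside 24.7% and 32.6%, and 7 and 1 of 15 in NCI-H1299, beside 20.6% and 26.5%. RXRA (-1.20 ± 0.18), a partner of nuclear receptors, and KEAP1 (-1.19 ± 0.23) fell in Kasumi-1, and AHR, the aryl hydrocarbon receptor, rose in NCI-H1299 (1.18 ± 0.14).

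Set directly against ABBV-075 at 100 nM, ABBV-744 at 200 nM gave 5 higher and 7 lower ABC genes of 22 in SKM-1, beside 22.7% and 21% of all tested genes (43.6% in either direction). The counts were 2 higher and 4 lower of 22 in MV-4-11, beside 12.5% and 9.44% (21.9% in either direction), 5 and 5 of 18 in Kasumi-1, beside 21.2% and 16.5% (37.7% in either direction), and 2 and 9 of 23 in NCI-H1299, beside 18.6% and 16% (34.6% in either direction). ABCE1 was higher with ABBV-744 than with ABBV-075 in SKM-1 (1.55 ± 0.20, adjusted p = 1.36e-05) and Kasumi-1 (0.64 ± 0.20, adjusted p = 0.0202). It was not called in MV-4-11 (0.26, 95% interval -0.16 to 0.68, adjusted p = 0.410) or NCI-H1299 (0.51, 95% interval 0.09 to 0.93, adjusted p = 0.0573). ABCC4 was higher with ABBV-744 in the 3 leukaemia lines, by 0.81 ± 0.13 in SKM-1, 0.41 ± 0.13 in MV-4-11 and 0.44 ± 0.13 in Kasumi-1, and not called in NCI-H1299 (0.14, 95% interval -0.13 to 0.42, adjusted p = 0.413). ABCA7 was lower with ABBV-744 in SKM-1 (-1.16 ± 0.23, adjusted p = 8.58e-04), Kasumi-1 (-1.04 ± 0.23, adjusted p = 0.00281) and NCI-H1299 (-0.79 ± 0.23, adjusted p = 0.0159), and not called in MV-4-11 (-0.32, 95% interval -0.82 to 0.18, adjusted p = 0.385). ABCD3 was lower with ABBV-744 in all 4 lines, with log2 differences of -0.49 in SKM-1, -0.74 in MV-4-11, -0.95 in Kasumi-1 and -0.88 in NCI-H1299 (largest adjusted p = 0.0279). ABCB1 was lower in Kasumi-1 (-1.47 ± 0.12, adjusted p = 4.63e-07).

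In the mean of the leukaemia lines, 5 rose and 5 fell of 16 with ABBV-075, beside 33.5% and 34.4% of all tested genes (67.9% in either direction), and 3 rose and 5 fell with ABBV-744, beside 18.2% and 17.3% (35.5% in either direction). The response to ABBV-075 depended on the line for 13 of the 16 ABC genes (81.2%), beside 50.4% of all tested genes. The 3 not called were ABCA3, ABCB8 and ABCD4. The mean leukaemia response differed from that of NCI-H1299 for 3, higher for ABCA7 and lower for ABCC1 and ABCC4, beside 10.5% higher and 8% lower of all tested genes (18.5% in either direction). These counts with ABBV-075 include ABCC1, which passed the filter in SKM-1 without any ABBV-075 library at 1 FPKM. With ABBV-744, 0 of 16 were called in that difference by limma, beside 0.305% higher and 0.265% lower of all tested genes (0.57% in either direction), and 5 (2 higher and 3 lower) had an unadjusted p under 0.05.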

How the data were processed

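The authors deposited 1 table of FPKM values for 30373 genes in 24 libraries, without counts. DESeq2 is named in the submitters' processing notes, without its role. Which aligner, quantifier, build and annotation made the table is not given in the sources used here. Coordinates of its genes are therefore not printed. Since depth is unknown, counting intervals were not made.

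Values were analysed as log2(FPKM + 1), so a log2 difference understates the change of genes near or below 1 FPKM. A gene was tested where 2 or more libraries of each line compared reached 1 FPKM. All tested genes were fitted with a mean for each of the 12 groups, which leaves 12 residual degrees of freedom, in R 4.3.3 with limma 3.58.1 (eBayes with trend and robust, statmod 1.5.0), and checked on simulated data. P-values are two-sided and Benjamini-Hochberg adjusted over all tested genes of each of 19 comparisons, with calls at an adjusted p under 0.05. Differences between single pairs of lines (6 pairs, each compound) were added after seeing the data. With 2 libraries against 2, an exact permutation test has a smallest p of 0.333, so each call leans on limma's pooling of the spread over genes and groups. Intervals are at 95%.

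The members and the 7 lists of 100 partner genes were chosen with earlier results of these data known. Every library of the lines where a member was tested is given for members with a called log2 difference of at least 1 in size against DMSO in a line. The same was done for those called in 1 direction with ABBV-075 in all 4 lines and for those called in opposite directions in a pair of lines. ABCA2 and ABCA5 are also given in lines where they were not tested. Values of single libraries of some lines are also given for a few others chosen after their values were seen (ABCA3, ABCA10, ABCB6, ABCC3, ABCF1 and ABCG2). From each list, up to 4 called genes with the largest change and up to 2 uncalled ones are named. Single results of 2 tested members and of some partner genes are not reported here, but counts, medians and sums include them. Alternatives were a pseudocount of 0.1, no filter, a filter of 5 FPKM, libraries rescaled by medians of ratios, a fit of each line alone, each library left out, and, added after seeing the data, the fit without the SKM-1 DMSO and Kasumi-1 ABBV-075 groups. Genes overlapping on the other strand were looked up in GENCODE. Promoter windows came from RefSeq on GRCh38.p14. Plots were drawn with Python 3.11.15, numpy 2.4.6 and matplotlib 3.10.9.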

Additional observations from a re-analysis of the deposited data

Results flagged for a closer look

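Differences between the responses of lines were tested directly and are given as adjusted p-values from limma, with no explanation. For ABBV-075 the mean response of the leukaemia lines differed from that of NCI-H1299 for ABCA7 (0.0317), ABCC1 (4.54e-05) and ABCC4 (0.000851), higher for ABCA7 and lower for the others.

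Over the 4 lines, the ABBV-075 response differed for ABCC1 (1.06e-06), ABCC4 (0.000298), ABCF2 (0.00133), ABCA7 (0.00237) and ABCE1 (0.00313). Weaker differences were called for ABCD3 (0.0158), ABCB10 (0.0212), ABCC10 (0.0392), ABCC5 (0.0401), ABCF1 (0.0472) and ABCF3 (0.0478). The SKM-1 responses of ABCF1 and ABCC5 depend on which DMSO library is kept. Their log2 differences were -0.11 and 0.10 without SKM-1 DMSO replicate 2, and -1.30 and 0.54 without replicate 1. For ABBV-744, the test over the 4 lines called ABCC1 (0.0044).

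Of genes not tested in all lines, the ABBV-075 response of ABCA2 differed between SKM-1 and MV-4-11 (0.000505) and between MV-4-11 and NCI-H1299 (0.0122), that of ABCA1 between SKM-1 and NCI-H1299 (0.0339), that of ABCD2 between MV-4-11 and NCI-H1299 (0.000145), and that of ABCB1 between Kasumi-1 and NCI-H1299 (7.34e-06). With ABBV-744, ABCA1 differed between SKM-1 and MV-4-11 (0.0413) and ABCB1 between Kasumi-1 and NCI-H1299 (0.0263). Pairs of lines were compared after seeing the data.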

How the results depend on the processing

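Of 87 changes of ABC genes called with a compound against DMSO in a line or in the leukaemia mean, 53 were called under every alternative that gave a value and 34 were lost under at least 1. None changed sign. Changes of level on this scale are limited by the unknown depth and by 2 libraries a group.

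The count of called ABC genes moved by over 1.5 times in the following fits, and the causes were not tested. Fitting a line alone estimates the spread from the libraries of that line only. It gave 10 with ABBV-075 and 2 with ABBV-744 in SKM-1, and 3 with ABBV-744 and 4 between the compounds in Kasumi-1. These counts were lower than in the main fit. In NCI-H1299 it gave 9 with ABBV-744, against 1 in the main fit. A pseudocount of 0.1 gave 1 with ABBV-744 in MV-4-11 and 0 in NCI-H1299, and 6 between the compounds in NCI-H1299. Rescaling gave 8 with ABBV-744 in SKM-1 and 2 for the dependence on the line with ABBV-744. The filter of 5 FPKM, with fewer genes tested, gave 1 with ABBV-744 in MV-4-11, 7 between the compounds in NCI-H1299 and 0 for the dependence on the line with ABBV-744. No filter, with more genes tested, gave 21 in the leukaemia mean with ABBV-075, 21 for the dependence on the line and 6 for the leukaemia mean minus NCI-H1299 with ABBV-075, 3 with ABBV-744 in NCI-H1299, 6 for the dependence on the line and 1 for the leukaemia mean minus NCI-H1299 with ABBV-744, and 23 between leukaemia lines and NCI-H1299 in DMSO. Without the SKM-1 DMSO and Kasumi-1 ABBV-075 groups, ABBV-744 gave 10 in MV-4-11 and 5 in NCI-H1299.

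With 1 library left out at a time, the ABBV-075 counts ran from 12 to 18 in SKM-1, 9 to 15 in MV-4-11, 9 to 14 in Kasumi-1, 11 to 15 in NCI-H1299 and 10 to 14 in the leukaemia mean. ABBV-744 counts ran from 4 to 10, 1 to 5, 4 to 7, 0 to 2 and 6 to 10 in the same order. Between the compounds they ran from 10 to 13 in SKM-1, 1 to 7 in MV-4-11, 5 to 10 in Kasumi-1 and 5 to 13 in NCI-H1299. For the leukaemia mean minus NCI-H1299 they ran from 2 to 6 with ABBV-075, 0 to 3 with ABBV-744 and 11 to 14 in DMSO, and for the dependence on the line from 7 to 14 with ABBV-075 and 1 to 7 with ABBV-744. No paired analysis was possible because the labels give no replicate numbers and the numbers used are accession order only.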

Other observations

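Besides ABCG2, the untested genes that reached 1 FPKM in some library were ABCA10 and ABCC2, the apical exporter of conjugated bilirubin in liver. ABCA10 in MV-4-11 read 0.870 and 1.42 FPKM with ABBV-075, 0.333 and 0.263 with ABBV-744 and 0.320 and 0.360 with DMSO, with the ABBV-075 libraries above all others. ABCA10 overlaps ABCA5 on the same strand, so reads may be shared between them. ABCC2 ran from 0.0786 to 0.459 FPKM in SKM-1, 0.471 to 0.712 in MV-4-11, 0.184 to 0.403 in Kasumi-1 and 0.469 to 1.02 in NCI-H1299. The pseudogene row ABCA11P, which the rule leaves out, ran from 1.80 to 5.43 FPKM over the 24 libraries.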
